A study of Mus musculus with 9 samples.

Results

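Gene expression was compared between livers of mice given WZB before D-gal/LPS and livers of mice given D-gal/LPS alone. The comparison used 6 of the 9 libraries of the study, 3 in each group, chosen by their labels, and 3 control libraries served to set levels beside them and to estimate the spread. All mice were male C57BL/6 animals of a specific-pathogen-free colony, 6 to 8 weeks old, with no altered gene named in the labels. Both groups received D-gal/LPS, so WZB is the named difference between them. D-gal is a common short form of D-galactosamine, and LPS of lipopolysaccharide. The labels do not expand WZB. The series' design names pretreatment with GLUT1 inhibitors. The sources used here give no dose, time, vehicle or injury score, and there was no group given WZB without D-gal/LPS. Whether each replicate is a separate animal is not stated in the labels. A p-value therefore measures the spread between these samples, which may be technical.

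Lipopolysaccharide is sensed by Toll-like receptor signalling in macrophages, which release tumour necrosis factor, other cytokines and chemokines and start an interferon response. Galactosamine is metabolised in hepatocytes, where it depletes uridine nucleotides and limits transcription, which sensitises the cells to death by tumour necrosis factor. GLUT1, encoded by Slc2a1, carries glucose into many cell types, while resting hepatocytes rely mainly on GLUT2. RNA sequencing measures each transcript as a share of its library, so a fold change between groups depends on the factor by which each library is scaled.

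The 6 libraries held between 15135069 and 17961822 counts, and 13583 genes were tested. The first principal component of the 6 libraries took 56.9% of the variance and separated the groups. The second took 14.7% and set WZB replicate 1 at 25.3 against WZB replicate 2 at -25.2. Correlations of log2 levels lay between 0.982 and 0.984 within the D-gal/LPS group, between 0.976 and 0.982 within the WZB group, and between 0.947 and 0.968 across the groups. The median gene had an SD of 0.145 log2 units between D-gal/LPS libraries and 0.169 between WZB libraries. All 10 hepatocyte markers of the labelled tissue were detected in each library.

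With WZB, 1873 genes rose (13.8% of those tested) and 2001 fell (14.7%), together 28.5%, at an adjusted p under 0.05 in edgeR's quasi-likelihood test with TMM scaling (trimmed mean of M values). Changes of at least 2-fold were fewer and mostly downward, with 181 genes higher (1.33%) and 608 lower (4.48%). In 6158 genes (45.3%) the WZB and D-gal/LPS libraries did not overlap. The rises included detoxifying cytochromes and fatty acid enzymes, and the falls included globin, cytokine and interferon-response transcripts.

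The near balance of rises and falls was not kept by all scalings. Setting the median of all genes at 0 gave 2010 rises and 1877 falls, and median-of-ratios factors gave 1556 and 2331. Scaling by total counts gave 850 rises (6.26%) and 3289 falls (24.2%). That scaling is also the one in the deposited FPKM values, whose depth equals the total count. Among 12 scalings, higher calls ran from 570 with cytosolic ribosomal protein genes as the reference to 2358 with upper quartile factors, and lower calls from 1643 to 3497. The median fold change of all genes was -0.02 with TMM, 0.05 with upper quartile factors, -0.22 with total counts and -0.26 with ribosomal protein genes, all on the log2 scale. No gene was called higher in one of the 12 scalings and lower in another (0.0%), nor at adjusted p thresholds of 0.01 and 0.1. This outcome was close to fixed in advance, because the scalings shifted fold changes only from -0.24 to 0.07 against TMM. The smallest change called with TMM was 0.205 in size. A scan of wider shifts, described below, called 925 genes in both directions.

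A core of genes kept its call and direction in all 12 scalings: 566 higher (4.17%) and 1643 lower (12.1%). These were 30.2% of the TMM rises and 82.1% of the TMM falls. The 2 shares are not alike in strictness, because the scalings shifted fold changes from -0.24 to 0.07 against TMM. Rises thus met larger opposing shifts than falls did. With library sizes shifted by 0.25 log2 units against each side, 649 rises and 1056 falls were called. Rises in all 12 had a median of 0.75 on the log2 scale and none under 0.49, while the other TMM rises had a median of 0.45. Falls in all 12 had a median of -0.84, against -0.44 for the other TMM falls. At an adjusted p under 0.01 in every scaling, 273 genes rose and 977 fell. A call in any scaling was made for 5891 genes, and 7692 were called in none.

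**Figure D1:**
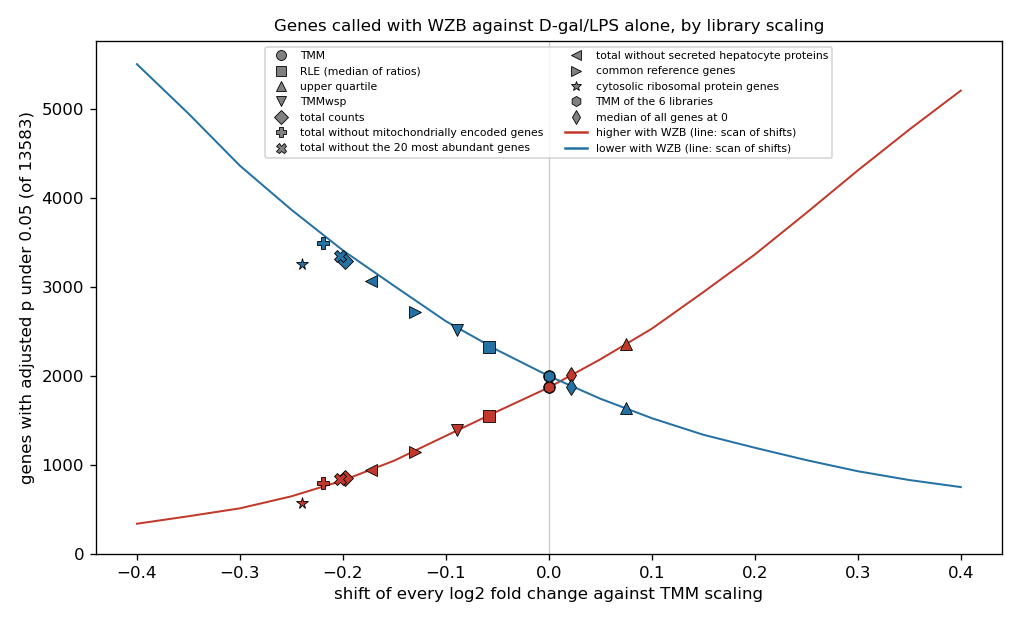
Genes with an adjusted p under 0.05 (y axis) that were higher (red) or lower (blue) with WZB, against the shift of every log2 fold change relative to TMM scaling (x axis). Points are the 12 scalings and lines a scan of 17 imposed shifts; rises run from 570 to 2358 over the points, and falls from 1643 to 3497.

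A scan that multiplied the WZB library sizes by fixed factors measured how steep this dependence was. Fold changes shifted up by 0.4 log2 units gave 5209 rises and 753 falls, and shifted down by 0.4 they gave 341 rises and 5506 falls. Over the 17 settings of the scan 341 genes were higher throughout, 753 were lower throughout, 925 were called in both directions and 3793 in none. TMM itself depends on its reference library. edgeR took D-gal/LPS replicate 2, and other D-gal/LPS or WZB references moved the fold changes by 0.02 or less. A control library as the reference moved them by -0.10 to -0.09, with 1344 to 1405 rises and 2505 to 2594 falls. Without D-gal/LPS replicate 2 there were 1232 rises and 2315 falls.

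The shift was not the same at all expression levels. Among 965 genes with a mean of 100 to 1000 CPM (counts scaled to the size of the library), 52.7% rose and 13.1% fell, with a median log2 fold change of 0.30. Among 122 genes over 1000 CPM, 54.9% rose and 5.74% fell, and their median was 0.37. In 5548 genes of 1 to 10 CPM only 4.43% rose and 11.1% fell, with a median of -0.10. With total counts the medians of the same classes were 0.10, 0.18 and -0.30. A library scaling moves all classes alike and cannot change the difference between them. The 122 most abundant genes took 55.5% of reads with D-gal/LPS and 57.9% with WZB.

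Fold changes also varied with the length implied by the ratio of deposited counts to FPKM. That length is not the length of 1 transcript in every gene. For Lcn2 it was 4867 bases, more than the span of the gene from 32384633 to 32388252 on chromosome 2. In 5 classes of nearly equal size, the shortest genes, under 2492 bases, had a median log2 fold change of 0.17, and the longest, from 9703 bases, had -0.17. The classes between had 0.05, -0.02 and -0.08. The shortest-minus-longest difference from the D-gal/LPS mean was 0.29, 0.34 and 0.23 in the WZB libraries and -0.05, 0.04 and 0.00 in the D-gal/LPS libraries, so the groups did not overlap. In control libraries it was 0.04, 0.12 and 0.05. Whether length, RNA quality or cell makeup plays a part in the fold changes was not tested. Removing the length trend from each library left 2204 rises and 1599 falls, and removing the level trend left 1997 and 1665.

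**Figure D2:**
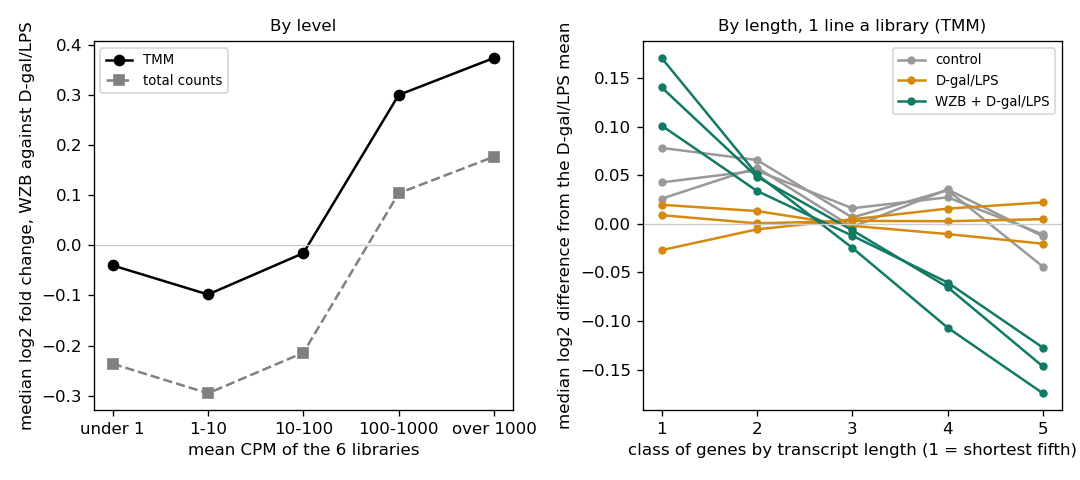
Left, the median log2 fold change (y axis) of genes by mean CPM (x axis) with TMM (black) and total-count (grey) scaling. Right, each library's median log2 difference from the D-gal/LPS mean (y axis) by class of length (x axis). This is the length implied by counts and FPKM, labelled transcript length. The 3 WZB lines fall from short to long genes and the D-gal/LPS lines stay near 0.

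Slc2a1, the gene of GLUT1, was lower with WZB in every scaling. Its log2 fold change of -1.13 ± 0.15 (SE; edgeR adjusted p = 0.000109) ranged from -1.35 to -1.05 over the 12 scalings. The largest adjusted p with 1 library left out was 0.00109. Levels were 8.02 CPM in control livers, 41.8 ± 4.87 with D-gal/LPS and 19.1 ± 2.46 with WZB (SD, n = 3). Slc2a3, the gene of GLUT3 in neurons and blood cells, fell by 1.32 ± 0.29 (edgeR adjusted p = 0.00397) and Slc2a6, a transporter of inflammatory macrophages, by 1.25 ± 0.21 (edgeR adjusted p = 0.000657). Slc16a3, a lactate exporter, fell by 0.85 ± 0.23 (edgeR adjusted p = 0.0137); the edgeR adjusted p was 0.0522 without D-gal/LPS replicate 3 and 0.0549 without WZB replicate 1. Slc2a2, the hepatocyte transporter GLUT2, rose by 0.71 ± 0.19 with TMM (edgeR adjusted p = 0.0238) and was called in 6 of the 12 scalings. Its call was lost when any 1 of the 3 D-gal/LPS libraries, WZB replicate 1 or WZB replicate 3 was left out (edgeR adjusted p from 0.0514 to 0.131), and also without the level trend (edgeR adjusted p = 0.116). Of 10 tested glucose and lactate transporter genes 4 rose and 4 fell. The 4 falls held in all 12 scalings, and none of the 4 rises did. With shifts from -0.24 to 0.07 against TMM, rises met larger opposing shifts than falls, so the 2 results are not alike in strictness.

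The genes of the largest rises and falls below were taken from those with no overlap between the groups and a mean of at least 5 CPM in either, predicted genes aside, and others from the largest changes without overlap in a class of level or from the lists. Where a gene was taken for lack of overlap, its separation follows from that choice. The largest rises included genes of lipid and drug metabolism. Cyp4a14, a fatty acid hydroxylase and a target of the receptor PPAR-alpha, had 227, 360 and 338 counts with D-gal/LPS and 2321, 1195 and 1851 with WZB. It rose by 2.70 ± 0.28 on the log2 scale (edgeR adjusted p = 0.000364). The mean was 101 CPM in controls, 18.9 ± 5.38 with D-gal/LPS and 123 ± 37.9 with WZB. Cyp4a10, a close relative, rose by 1.89 ± 0.24 (edgeR adjusted p = 0.00102). The Cyp4a genes are near copies, and reads may be split between them.

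Cyp2b10, a drug-metabolising cytochrome and a classical target of the receptor CAR, had 26, 54 and 53 counts with D-gal/LPS and 236, 214 and 322 with WZB. It rose by 2.69 ± 0.28 (edgeR adjusted p = 3.5e-05). Its mean was 2.38 CPM in controls, 2.73 ± 1.08 with D-gal/LPS and 17.5 ± 1.97 with WZB. Cyp2c55, another drug-metabolising cytochrome, rose by 1.83 ± 0.15 (edgeR adjusted p = 4.42e-06) and the glutathione transferases Gstt3 and Gstm3 by 1.66 ± 0.14 and 1.56 ± 0.11 (edgeR adjusted p = 5.56e-06 and 2.1e-06). For Cyp2b10, Cyp2c55 and Gstm3 the control level was near the D-gal/LPS level (7.43 and 6.47 CPM for Cyp2c55, 83.6 and 86.3 CPM for Gstm3). Nqo1, a quinone reductase, had 27, 41 and 46 counts with D-gal/LPS and 91, 81 and 90 with WZB, and rose by 1.37 ± 0.25 (edgeR adjusted p = 0.00141).

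Scd1, the desaturase that makes monounsaturated fatty acids, stood at 2476 ± 279 CPM with D-gal/LPS and 9343 ± 3322 CPM with WZB. Its WZB counts of 180743, 81757 and 147787 all lay above the 38651, 42194 and 40923 of D-gal/LPS, although they differed widely among themselves. It rose by 1.92 ± 0.24 (edgeR adjusted p = 0.000983), and the malic enzyme gene Me1, a source of NADPH for lipid synthesis, by 1.40 ± 0.10 (edgeR adjusted p = 2.1e-06). Cyp2e1, an ethanol-inducible cytochrome of hepatocytes, rose from 4432 ± 633 to 8937 ± 535 CPM, or by 1.01 ± 0.11 (edgeR adjusted p = 3.02e-05). Cyp26a1, which degrades retinoic acid, rose by 1.65 ± 0.45 (edgeR adjusted p = 0.0278) but lost its call without any 1 of the 3 D-gal/LPS libraries or without WZB replicate 2 or 3 (edgeR adjusted p from 0.0514 to 0.105).

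Under the same limits, the largest falls were in globin genes. Larger estimates existed outside these limits, such as -4.17 for Saa2, an acute phase gene whose groups overlapped (edgeR adjusted p = 0.0401). Its call was lost in 8 of 9 fits with 1 library left out, the exception being D-gal/LPS replicate 2 (edgeR adjusted p from 0.063 to 0.124). Hbb-bs had 41558, 29995 and 23957 counts with D-gal/LPS and 2693, 1257 and 5330 with WZB, against 424 to 793 in control libraries. Its log2 fold change was -3.24 ± 0.50 (edgeR adjusted p = 0.00443), and Hbb-bt, Hba-a1 and Hba-a2 lay between -3.22 and -3.18. The globin genes are close copies and may share reads. Bpgm, which sets the oxygen affinity of red cells, fell by 2.26 ± 0.20 (edgeR adjusted p = 2.35e-05). Red blood cell transcripts took 0.414% of reads with D-gal/LPS, 0.0498% with WZB and 0.0147% in controls.

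Immune genes were also among the larger falls. Slamf1, a receptor of activated leukocytes, had 162, 90 and 128 counts with D-gal/LPS, 13, 12 and 24 with WZB and 0 in each control library, and fell by 2.77 ± 0.31 (edgeR adjusted p = 8.26e-05). Il27, a cytokine subunit of activated myeloid cells, had 79, 51 and 76 counts against 7, 8 and 9, and fell by 2.90 ± 0.41 (edgeR adjusted p = 0.000216). Csf3, the growth factor of neutrophils, had 313, 285 and 296 counts against 52, 57 and 58, and fell by 2.24 ± 0.17 (edgeR adjusted p = 7.97e-06). In each of these 3 genes the call held in all 12 scalings. Saa1, an acute phase protein, had 12741, 1009 and 6057 counts with D-gal/LPS and 648, 464 and 1057 with WZB, against 20634 to 21302 in control libraries. The fall of 2.99 ± 0.83 (edgeR adjusted p = 0.0402) was lost in 8 of 9 fits with 1 library left out (edgeR adjusted p from 0.0639 to 0.128), the exception being D-gal/LPS replicate 2.

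**Figure D3:**
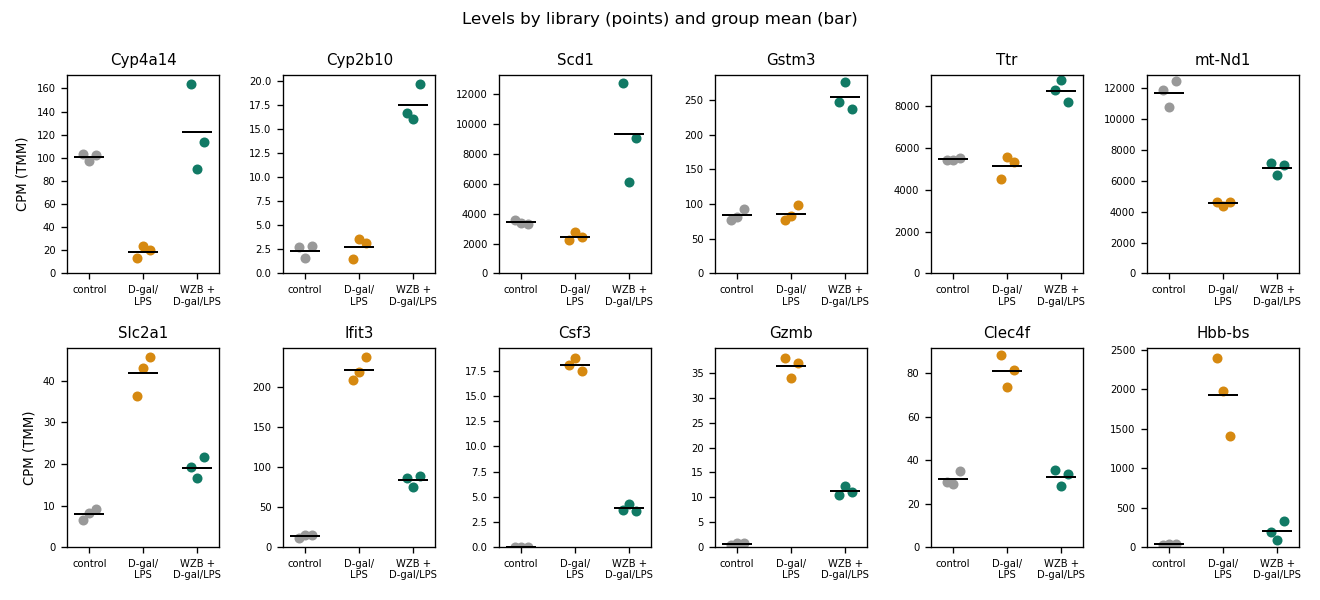
CPM with TMM scaling (y axes, linear, starting at 0) of 12 genes in each library, with points for libraries and bars for group means. The WZB points lie above the D-gal/LPS points in the first 6 genes and below them in the last 6; control libraries are shown for level only.

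Lists of liver metabolism and of immune activity differed in how many members were called. They are read against the background of 13.8% higher and 14.7% lower genes and a median of -0.02. That background differs by level. Among all genes of 100 to 1000 CPM 52.7% rose (median 0.30), and among those over 1000 CPM 54.9% (median 0.37). Lists of abundant genes are to be read beside these shares, and lists near them do not stand out from their level. Among genes of at least 10 CPM in the shortest class of length, under 2767 bases, 38.2% rose (median 0.24). A call in all 12 scalings removes neither the level trend nor the length trend. List medians without the level trend are given below only for secreted hepatocyte proteins and mitochondrially encoded genes. Of 30 tested xenobiotic enzymes 27 rose and none fell, with a median log2 fold change of 0.93, and 25 rose in all 12 scalings. Cyp3a11, a major drug-metabolising cytochrome, rose by 0.93 ± 0.10 (edgeR adjusted p = 4.09e-05). Among 27 fatty acid oxidation and ketogenesis genes 24 rose and none fell (median 0.64), 15 of them in all scalings. Ehhadh, a peroxisomal oxidation enzyme, rose by 0.95 ± 0.09 (edgeR adjusted p = 1.76e-05).

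Of 24 nuclear genes of oxidative phosphorylation 23 rose (median 0.53), 12 of them in all scalings, among them the ATP synthase subunit Atp5o at 0.69 ± 0.08 (edgeR adjusted p = 6.02e-05). Of 21 citric acid cycle genes 18 rose (median 0.47), 7 of them in all scalings, with the cytosolic isocitrate dehydrogenase Idh1 at 0.86 ± 0.08 (edgeR adjusted p = 1.24e-05). In the list of urea cycle and amino acid catabolic enzymes 20 of 24 rose and 2 fell (median 0.56), 12 and 2 of them in all scalings. Cdo1, a cysteine dioxygenase, rose by 1.08 ± 0.10 (edgeR adjusted p = 1.01e-05), while Nags, whose product N-acetylglutamate activates carbamoyl phosphate synthetase, fell by 0.73 ± 0.15 (edgeR adjusted p = 0.00338). Of 18 bile acid genes 9 rose and none fell (median 0.54), 7 of them in all scalings, with the bile salt uptake carrier Slc10a1 at 0.72 ± 0.09 (edgeR adjusted p = 6.26e-05). Fewer members were called in other metabolic lists. Of 17 genes of gluconeogenesis and glycogen 8 rose and none fell (median 0.35), but only 1 rose in all scalings. Of 19 of lipogenesis and triglyceride synthesis 9 rose, 6 of them in all scalings, and 1 fell (median 0.43). Of 23 of cholesterol synthesis and uptake 7 rose, 3 of them in all scalings, and 1 fell (median 0.23).

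Secreted hepatocyte proteins showed how far a list can lean on scaling. Of 22 genes 17 rose and none fell with TMM (median 0.37), but 5 rose in all scalings. The median of all genes over 1000 CPM was also 0.37. Albumin, the main plasma protein, stood at 71913 ± 2293 CPM with D-gal/LPS and 93561 ± 6333 with WZB. The log2 fold change of Alb was 0.38 ± 0.07 (edgeR adjusted p = 0.00143), it was called in 7 scalings, and it was -0.28 without the level trend. Ttr, a thyroxine carrier, rose in all scalings, by 0.77 ± 0.09 with TMM (edgeR adjusted p = 4.42e-05). The list median was -0.09 without the level trend. Of 44 cytosolic ribosomal protein genes 15 rose (median 0.25) and 2 did so in all scalings. One of these scalings takes the same genes as its reference, which holds their median near 0 (0.01), so few could rise in all. With total counts 2 rose. Of 13 mitochondrially encoded genes 3 rose (median 0.15, and -0.38 without the level trend), mt-Nd1, a subunit of complex I, among them at 0.59 ± 0.08 (edgeR adjusted p = 0.000163). The call of mt-Nd1 was lost without the level trend (0.10, edgeR adjusted p = 0.459). Their share of reads was 15.1 ± 0.41% with D-gal/LPS and 13.9 ± 0.50% with WZB, with no overlap between the groups (exact permutation p = 0.1, the smallest that 3 against 3 libraries can give, two-sided).

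Glycolytic genes went both ways, 6 up and 8 down of 20. Those that fell included Hk1 and Pkm, forms used by cells other than resting hepatocytes, by 1.30 ± 0.15 and 0.91 ± 0.11 (edgeR adjusted p = 4.35e-05 and 5.8e-05). Pfkfb1, the liver form of the enzyme that sets the glycolytic rate, rose by 1.09 ± 0.13 (edgeR adjusted p = 6.72e-05), and Pdk1, which restrains pyruvate dehydrogenase, by 1.19 ± 0.11 (edgeR adjusted p = 1.28e-05). Of 16 hepatocyte transcription factors only 2 rose, Hnf4a and Nr1i2, and none fell. Nr1i2, the xenobiotic receptor PXR, rose by 0.73 ± 0.12 (edgeR adjusted p = 0.000514) and Hnf4a, a regulator of hepatocyte identity, by 0.44 ± 0.07 (edgeR adjusted p = 0.000527, called in 11 scalings). The call of Hnf4a was lost without the level trend (edgeR adjusted p = 0.128).

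Cytokine and interferon genes fell together. Of 17 tested cytokines 15 fell and none rose (median -1.37). Tnf, the cytokine that kills sensitised hepatocytes, had 406, 460 and 456 counts with D-gal/LPS and 165, 203 and 244 with WZB, and fell by 0.94 ± 0.21 (edgeR adjusted p = 0.00451). Il6 fell by 2.08 ± 0.34 and Il1b by 0.80 ± 0.13 (edgeR adjusted p = 0.000589 and 0.000483). Of 20 chemokines 9 fell and none rose (median -0.70), among them Ccl3, a macrophage chemokine, by 1.58 ± 0.12 (edgeR adjusted p = 3.09e-06). Of 18 NF-kB genes 14 fell (median -0.79), with Vcam1, a leukocyte adhesion molecule, at -1.23 ± 0.13 (edgeR adjusted p = 2.79e-05). Of 22 genes of cell death 14 fell and 1 rose (median -0.55), Casp4, the sensor of intracellular LPS, by 1.08 ± 0.11 and Mlkl, the effector of necroptosis, by 1.23 ± 0.15 (edgeR adjusted p = 2.57e-05 and 7.24e-05).

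Of 24 type I interferon-stimulated genes 19 fell and none rose (median -0.99), and 18 fell in all scalings. Cmpk2, a mitochondrial nucleotide kinase of the antiviral response, had 1319, 1205 and 1346 counts with D-gal/LPS and 306, 272 and 364 with WZB, and fell by 1.86 ± 0.10 (edgeR adjusted p = 1.23e-06). Rsad2, the antiviral enzyme viperin, fell by 2.17 ± 0.13 and Ifit3, an antiviral effector, by 1.41 ± 0.10 (edgeR adjusted p = 2.1e-06 each). Their control means of 3.45 CPM for Cmpk2 and 13.7 CPM for Ifit3 lay below the WZB means of 21.5 ± 0.942 and 83.7 ± 7.09. Of 16 interferon-inducible GTPases 14 fell (median -0.86), among them Gbp3 by 0.96 ± 0.10 and Tgtp2 by 1.07 ± 0.11 (edgeR adjusted p = 2.51e-05 and 2.37e-05), both of which act against intracellular pathogens. Of 11 genes of MHC class I and the immunoproteasome, which present peptides to T cells, 5 fell and none rose (median -0.22).

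The promoters of 4 of these genes show the motif bound by interferon-activated factors. Each is 250 bases up to the gene start, from RefSeq on GRCm38.p6, read 5′ to 3′ on the gene's strand. Capitals mark the core of the interferon-stimulated response element on either strand, which is GAAA, 2 bases of any kind and GAAA. The genes were chosen after their letters and values were seen. Ifit3 is at chr19:34583279-34583528 on the plus strand, Rsad2 at chr12:26456453-26456702 on the minus strand, Gbp3 at chr3:142559794-142560043 on the plus strand and Tgtp2 at chr11:49064213-49064462 on the minus strand.
Ifit3: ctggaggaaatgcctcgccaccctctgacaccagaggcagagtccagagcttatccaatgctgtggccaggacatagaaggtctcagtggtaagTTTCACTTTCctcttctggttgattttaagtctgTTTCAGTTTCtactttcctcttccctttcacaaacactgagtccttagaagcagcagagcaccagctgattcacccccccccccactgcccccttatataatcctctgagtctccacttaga
Rsad2: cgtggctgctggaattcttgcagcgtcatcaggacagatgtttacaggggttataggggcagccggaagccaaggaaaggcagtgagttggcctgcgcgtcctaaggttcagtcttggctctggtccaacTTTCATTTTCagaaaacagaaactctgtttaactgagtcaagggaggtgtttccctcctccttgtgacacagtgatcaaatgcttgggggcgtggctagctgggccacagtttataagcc
Gbp3: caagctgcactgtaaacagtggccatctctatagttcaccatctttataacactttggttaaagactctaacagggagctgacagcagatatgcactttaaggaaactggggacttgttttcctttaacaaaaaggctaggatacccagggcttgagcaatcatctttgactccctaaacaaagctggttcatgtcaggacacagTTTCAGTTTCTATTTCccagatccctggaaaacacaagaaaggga
Tgtp2: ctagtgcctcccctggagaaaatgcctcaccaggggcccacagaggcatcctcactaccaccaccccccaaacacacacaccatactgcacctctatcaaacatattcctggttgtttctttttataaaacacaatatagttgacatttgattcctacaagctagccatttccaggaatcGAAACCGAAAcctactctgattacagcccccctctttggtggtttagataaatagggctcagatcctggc
Ifit3 holds 2 matches, which begin 156 and 122 bases before the start, and Gbp3 holds 2 that overlap, at 45 and 39. Rsad2 and Tgtp2 hold 1 each, at 120 and 70.

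The core was found in 9 of 18 promoters of the interferon-stimulated list and in 9 of 10 of the GTPase list. Of 10045 tested genes with a RefSeq promoter 2.81% held it, as did 2.42% of the rises and 4.70% of the falls. Among genes called in all 12 scalings it was in 17 of 404 promoters of rises (4.21%) and 64 of 1217 of falls (5.26%). Among falls of at least 2-fold it was in 46 of 432 promoters (10.6%), and among rises of that size in 1 of 114 (0.877%). The AP-1 motif TGANTCA, searched on both strands, was in 4.65% of all promoters, 5.27% of those of rises and 6.71% of those of falls. For changes of at least 2-fold it was in 3 of 114 promoters of rises (2.63%) and 53 of 432 of falls (12.3%). These shares are descriptions, and a match is not a bound site.

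Markers of immune and other cell types were lower in the same livers, and in bulk tissue fewer cells of a type and less RNA per cell cannot be told apart. Of 11 neutrophil markers 8 fell and none rose, with summed levels of 511 to 524 CPM with D-gal/LPS, 310 to 350 with WZB and 7.13 to 8.44 in controls. Of 12 monocyte markers 10 fell (455 to 470 CPM, then 247 to 283), and of 12 Kupffer cell markers 10 fell (529 to 586 CPM, then 276 to 368). Clec4f, a receptor found on Kupffer cells, fell by 1.32 ± 0.12 (edgeR adjusted p = 7.7e-06) to 32.4 ± 3.77 CPM, beside 31.3 CPM in controls. Slc40a1, the iron exporter, rose by 0.52 ± 0.13 with TMM (edgeR adjusted p = 0.0106) and was called in 7 scalings, and was at 0.29 without D-gal/LPS replicate 2 (edgeR adjusted p = 0.103). No marker of these lists was at 0 in all 6 libraries. What part these markers take in the fall of cytokine and interferon genes was not tested.

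Of 14 T, NK and B cell markers only 3 fell, Gzma, Gzmb and Nkg7, which are genes of cytotoxic granules. Nkg7 was not called without D-gal/LPS replicate 1 or 3 or WZB replicate 1 (edgeR adjusted p from 0.0563 to 0.0942). Gzmb, a protease of killer cells, had 659, 517 and 627 counts with D-gal/LPS and 147, 162 and 181 with WZB, and fell by 1.69 ± 0.14 (edgeR adjusted p = 4.52e-06). Of 12 sinusoidal endothelial markers 7 fell and Kdr, a receptor of vascular growth factor, rose with TMM, a call lost in 6 scalings and without D-gal/LPS replicate 3 or WZB replicate 1 (edgeR adjusted p = 0.0656 and 0.0716). Of 12 stellate cell and fibroblast markers 7 fell while 2 rose. Cdh5, the endothelial junction cadherin, fell by 1.30 ± 0.11 (edgeR adjusted p = 7.7e-06). Of 9 platelet transcripts 7 fell (median -2.02), and of 9 red blood cell transcripts 8 fell (median -2.52). The 9 cholangiocyte markers, of which 8 were tested, summed to 165 to 234 CPM with D-gal/LPS and 178 to 257 with WZB, ranges that overlap. Summed hepatocyte markers did not overlap between the groups with TMM, and 7 of 10 rose (median 0.41). Only 3 rose in all scalings, and with total counts 5 rose and 1 fell. Most of the sum was Alb, whose dependence on scaling and level is given above.

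Acute phase and stress genes were called in both directions with TMM. Of 18 heat shock chaperones 2 rose and 6 fell, of 14 NRF2 targets 5 rose and 3 fell, and of 13 p53 targets 1 rose and 4 fell. Of 22 acute phase genes 7 fell and 2 rose with TMM (median -0.24), while with total counts 11 fell and none rose. Of the falls 6 held in all scalings, but neither rise, Serpina3m or Crp, did. Summed levels of the list were 50053 to 54979 CPM in controls, 32653 to 40151 with D-gal/LPS and 29964 to 30413 with WZB. Haptoglobin, the scavenger of free haemoglobin, stood at 8771 CPM in controls, 4258 ± 953 with D-gal/LPS and 2691 ± 456 with WZB. Hp fell by 0.66 ± 0.16 (edgeR adjusted p = 0.0141). Hpx, the haem scavenger, fell by 0.56 ± 0.09 (edgeR adjusted p = 0.000426) and Lcn2, an iron-binding defence protein, by 1.01 ± 0.12 (edgeR adjusted p = 9.85e-05). Control means were 6219 CPM for Hpx and 230 CPM for Lcn2, beside 5079 and 228 CPM with D-gal/LPS. Hmox1, the haem-degrading enzyme, fell by 1.04 ± 0.09 (edgeR adjusted p = 5.02e-06). Of 22 immediate early genes 10 fell and none rose (median -0.46), with Nr4a1, a nuclear receptor of activated cells, at -1.57 ± 0.11 (edgeR adjusted p = 2.1e-06). The inducible chaperone Hspa1a fell by 1.39 ± 0.21 (edgeR adjusted p = 0.000368), while the mitochondrial chaperone Hspd1 rose by 0.57 ± 0.09 (edgeR adjusted p = 0.000483).

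Over all 41 lists the median stayed above 0 in all 12 scalings for 11 and below 0 for 22. The sign changed with scaling for 8, whose TMM medians lay between -0.06 and 0.23. Of 16 common reference genes, often used to scale quantitative PCR, 7 rose and 1 fell with TMM (median 0.15, from -0.10 to 0.22 over scalings). One of the 12 scalings takes these same genes as its reference. Actb, the cytoskeletal actin, fell by 0.62 ± 0.18 (edgeR adjusted p = 0.0313) in all scalings, though the call was lost without D-gal/LPS replicate 1 or 2 or any 1 of the 3 WZB libraries (edgeR adjusted p from 0.0607 to 0.117). Sdha, a subunit of complex II, rose by 0.47 ± 0.08 (edgeR adjusted p = 0.000546) and was called in 11 scalings.

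**Figure D4:**
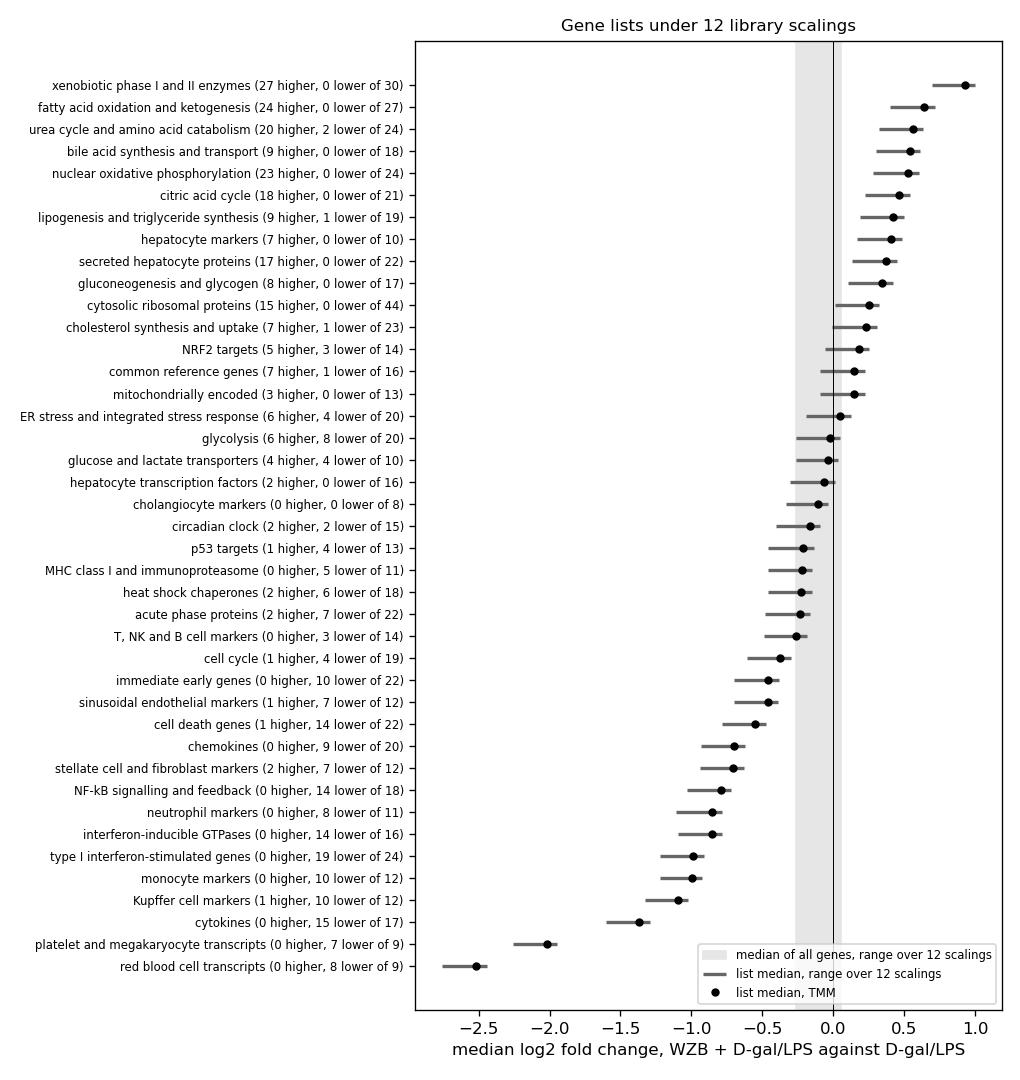
Median log2 fold change (x axis) of 41 gene lists (y axis, with counts of called genes), as a point for TMM and a bar for the range over 12 scalings. The grey band is the range of the median of all genes, from -0.26 to 0.05; xenobiotic enzymes lie highest at 0.93 and red blood cell transcripts lowest at -2.52.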

How the data were processed

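The authors deposited 1 table of raw counts and FPKM values per gene and library. Counts were used for all tests and the deposited FPKM values for 1 alternative and, with counts, for the implied length. Per the submitters' processing notes, the build was GRCm38.p4 (mm10), with R 4.1.2 and limma among the tools. The sources used here name no aligner, counting program or strandedness. Of 21 value columns, 3 fitted none of the labels and were left out. The table held 34745 genes, 14740 at 0 throughout. The filter (filterByExpr) kept 13583 genes with 99.93% of reads, from libraries of 15135069 to 17961822 counts.

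All 9 libraries entered 1 edgeR 4.0.16 quasi-likelihood fit (R 4.3.3, TMM, robust, 6 residual degrees of freedom). Adjusted p values follow Benjamini-Hochberg over the 13583 genes, and genes under 0.05 were called. The error of a log2 fold change is its size divided by the square root of the F statistic, and levels are CPM, mean ± SD. The 11 other scalings, DESeq2 1.42.0, voom in limma 3.58.1, other filters, trends and leaving out libraries were alternatives. Length-trend and level-trend offsets and the choice of TMM reference were added after seeing the data.

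The comparison, the gene lists and the naming rule were chosen with earlier results of these data known. The rule took Slc2a1, the largest rises and falls without overlap between groups (overall and by level class), the list members with the smallest adjusted p and the most abundant genes, and a part is printed. Rsad2, Tnf, Il6, Il1b, Slc2a2, Slc2a3, Slc16a3, Cyp3a11, Nkg7, Saa2 and Mcm6 are list members chosen after their values were seen.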

Additional observations from a re-analysis of the deposited data

How the results depend on the processing

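The counts of rises and falls depended on scaling, with 1873 and 2001 under TMM as the base. Rises and falls were 850 and 3289 with total counts, 794 and 3497 without mitochondrially encoded genes in the total, and 843 and 3355 without the 20 most abundant genes. They were 942 and 3073 without secreted hepatocyte proteins, 1143 and 2717 with common reference genes, and 570 and 3265 with ribosomal protein genes. In the scan, imposed upward shifts of fold changes by 0.15, 0.2, 0.25, 0.3, 0.35 and 0.4 log2 units gave 2944, 3367, 3834, 4312, 4771 and 5209 rises. Falls at upward shifts of 0.2 to 0.4 numbered 1195, 1056, 931, 832 and 753, and 5962 genes were called at 0.4. Downward shifts of 0.15 to 0.4 gave 1051, 827, 649, 514, 425 and 341 rises and 3012, 3413, 3870, 4365, 4951 and 5506 falls, with 5847 genes called at 0.4. limma on the deposited FPKM values (pseudocount 0.1), which are scaled by total counts, gave 899 and 3222. A minimum of 2-fold left 789 genes, 181 higher and 608 lower. A threshold of 0.01 left 1250 of the 2209 genes called alike in all 12 scalings.

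Leaving out 1 library gave between 1232 and 1947 rises, between 1410 and 2315 falls, and between 2707 and 4050 calls in all; the lowest count of rises came without D-gal/LPS replicate 2, when edgeR took another TMM reference. Of 77 genes named, 60 kept call and direction in every alternative run for them and 71 in all 11 other scalings. Most were picked for large changes or small adjusted p, so this stability follows in part from the choice. Of all 3874 genes called with TMM, 2209 kept call and direction in all scalings. Alb was at -0.28 without the level trend (edgeR adjusted p = 0.065). The share of reads of the 20 most abundant genes was lower with WZB by 0.21 percentage points (-0.21, exact permutation p = 0.4), that of the 50 most abundant higher by 1.31 (exact permutation p = 0.1). The cause of these shifts was not tested.

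A replicate block gave 1779 rises and 1879 falls, 3658 in all, and ended the calls of Hp, Saa1 and Saa2 (edgeR adjusted p = 0.0582, 0.0917 and 0.127) among named genes. Libraries with the same number deviated with correlations of -0.01, 0.06 and -0.03, and 2 of 6 libraries correlated best with their own number, so the numbers were not taken as pairs. With 3 libraries a group, an exact permutation test cannot give a p under 0.1. Depth limits scarce genes most: of 1149 tested genes under 1 CPM, 30 were called higher and 28 lower.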

Other observations

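Genes of proliferation, daily rhythm and protein folding were called in both directions with TMM, beside 13.8% higher and 14.7% lower among all tested genes. Of 19 cell cycle genes 4 fell and 1 rose. The proliferation marker Mki67 had 239, 252 and 244 counts with D-gal/LPS and 100, 82 and 104 with WZB, and fell by 1.19 ± 0.16 on the log2 scale (edgeR adjusted p = 0.000133). Top2a, the topoisomerase of dividing cells, fell by 1.19 ± 0.22 and Mcm6, a replication helicase subunit, by 0.69 ± 0.16 (edgeR adjusted p = 0.00155 and 0.00554). Of 15 clock genes 2 fell, Per2 and Per3, and 2 rose with TMM, of which each was called in 6 scalings, which are shares near those of all tested genes. The call of Per2 was lost without D-gal/LPS replicate 1 or WZB replicate 2 (edgeR adjusted p = 0.0511 and 0.065) and without the level trend (edgeR adjusted p = 0.0619). Of 20 genes of endoplasmic reticulum stress 6 rose and 4 fell with TMM. Hspa5, the main chaperone of that compartment, fell by 0.50 ± 0.13 (edgeR adjusted p = 0.0117) and its call was lost without WZB replicate 2 (edgeR adjusted p = 0.0537).

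Among scarcer transcripts Hist4h4, a histone gene, had 4, 5 and 4 counts with D-gal/LPS and 66, 31 and 53 with WZB. It rose by 3.66 ± 0.47 on the log2 scale (edgeR adjusted p = 9.84e-05) and was called in all 12 scalings.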
